A study of Rattus norvegicus with 6 samples.

Results

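The phosphate carriers of the kidney, the hormone coreceptor Klotho and the enzymes that switch vitamin D on and off were followed in the renal cortex of rats given potassium bromate. The set holds 9 genes (Slc34a1, Slc34a3, Slc20a1, Slc20a2, Pdzk1, Kl, Fgfr1, Cyp27b1 and Cyp24a1), read by 18 of the 61537 probes of the array and chosen by gene symbol, out of 15645 named genes. The animals were male Sprague-Dawley rats bought at 5 weeks of age. In the bromate group 3 rats received potassium bromate, an oxidising compound toxic to the kidney, at 100 mg/kg/day over 4 weeks, and in the water group 3 rats received water over the same time. RNA of each animal was labelled with Cy3 and hybridised to 1 single-colour Agilent array. The tissue is renal cortex by its label. Markers of the proximal tubule and of podocytes were well above background on all 6 arrays, except Slc22a7 of the straight tubule, on 4. Their presence does not test the dissection.

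Phosphate filtered by the glomerulus is taken back in the proximal tubule by sodium-coupled carriers of the brush border. Parathyroid hormone and the bone hormone FGF23 lower this uptake, and FGF23 acts through FGF receptors held together with Klotho. The same tubule makes the active form of vitamin D with the enzyme encoded by Cyp27b1 and breaks it down with the enzyme encoded by Cyp24a1, so phosphate, calcium and vitamin D are set against each other in this tissue.

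Levels are given as log2 of the signal divided by the array's own 75th percentile, and differences are bromate minus water with their standard error. All 18 probes were well above background on all 6 arrays, and 0 probes were saturated. By limma with Benjamini-Hochberg adjustment over 37781 probes, 7.19% of probes rose and 7.6% fell at an adjusted p under 0.05, together 14.8%. Among the 18 probes of the 9 genes 3 rose, 6 fell and 9 did not pass, so 50% were called, in 6 genes. The groups did not overlap at 12 of the 18 probes (66.7%), against 41.1% of all probes tested. The median absolute difference was 0.46 at the 18 probes and 0.23 over all probes. Probes of 1 gene read the same transcripts and are not replicates. The set was chosen with earlier results of these data known, so these shares describe it and do not test it.

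**Figure D1:**
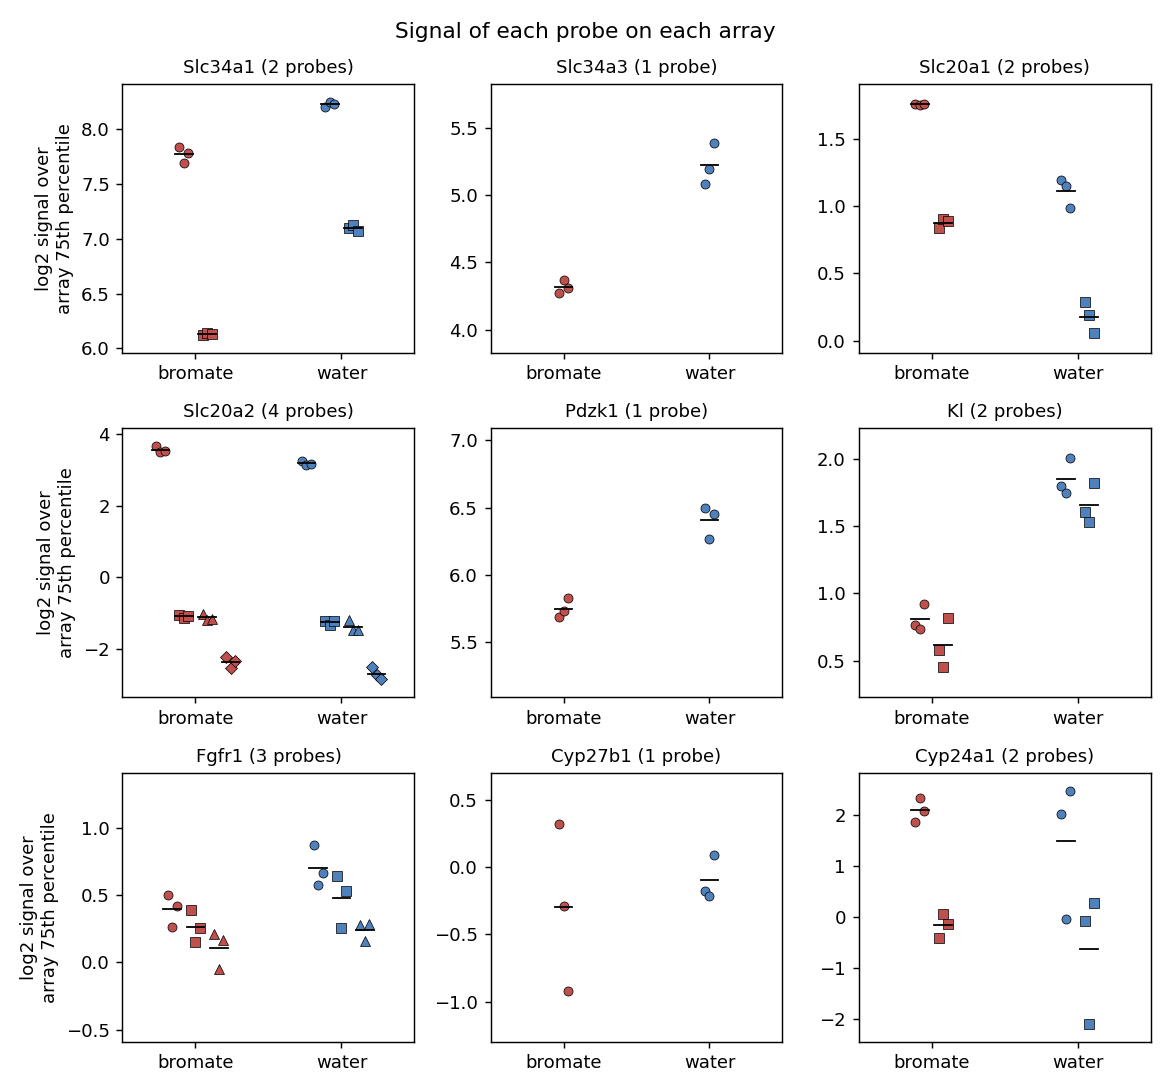
Log2 signal over the 75th percentile of the array (vertical axis) for each probe of the 9 genes on the 3 bromate arrays (red, left) and the 3 water arrays (blue, right). Marker shapes tell the probes of a gene apart, brightest first from the left, and bars are group means. Slc34a1, Slc34a3, Pdzk1 and Kl lie lower on every bromate array, Slc20a1 lies higher on every bromate array, and Cyp24a1 has 1 low water array at both probes.

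Both type II carriers, Slc34a1 and Slc34a3, fell. Slc34a1 encodes NaPi-IIa, the main phosphate carrier of the rat proximal tubule. At the dimmer of its probes the level was 6.13, 6.14 and 6.13 on bromate replicates 1 to 3, against 7.10, 7.13 and 7.07 on water replicates 1 to 3. All 3 bromate values lay below every water value and spanned 0.013. The fall was 1.95-fold (log2 difference -0.97 ± 0.07, adjusted p = 0.00215 by limma). In these bulk samples fewer cells of a type and less RNA per cell cannot be told apart. At the brighter probe the level was 7.83, 7.69 and 7.78 on the bromate arrays, against 8.20, 8.25 and 8.22 on the water arrays. The groups were again apart, with a fall of 1.37-fold (-0.46 ± 0.08, adjusted p = 0.0188). This smaller fall did not pass by limma without bromate replicate 2 (-0.42, adjusted p = 0.0688) or 3 (-0.46, 0.0603) or without water replicate 2 (-0.45, 0.0725) or 3 (-0.46, 0.0641), whereas the dimmer probe passed on leaving out any 1 array (highest adjusted p = 0.0162).

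The brighter probe exceeded the dimmer one by 1.63 ± 0.08 on the bromate arrays and by 1.13 ± 0.03 on the water arrays (SD, n = 3 each). The difference of 0.51 between these gaps, examined after the values were seen, had an exact two-sided permutation p = 0.1, the smallest that 3 arrays against 3 allow. The brighter probe gave a processed signal of up to 263016 intensity units, and none of its spots was marked as saturated.

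Slc34a3 encodes NaPi-IIc, a related sodium-phosphate carrier of the brush border. Its probe read 4.27, 4.37 and 4.31 on the bromate arrays, against 5.08, 5.19 and 5.39 on the water arrays. Every bromate value was below every water value, with a fall of 1.87-fold (-0.90 ± 0.10, adjusted p = 0.00677). The exact permutation test of the change of Slc34a1 at its brighter probe against that of Slc34a3 gave a difference of 0.45 (two-sided p = 0.1, adjusted p = 0.15 over 6 such pairs). At the dimmer probe of Slc34a1 the fall was as given above, -0.97 against -0.90 for Slc34a3, so the order of the carriers turned with the probe.

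Pdzk1 encodes a scaffold with several PDZ domains that binds brush border carriers, NaPi-IIa among them. Its level was 5.69, 5.73 and 5.82 on the bromate arrays, against 6.50, 6.27 and 6.45 on the water arrays. The groups did not overlap, and the fall was 1.58-fold (-0.66 ± 0.10, adjusted p = 0.013). On leaving out 1 array at a time, adjusted p by limma ran from 0.0306 to 0.0526, and the call was lost without bromate replicate 2 (-0.65, adjusted p = 0.0526).

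Of the widely expressed carriers, Slc20a1 rose at both probes and Slc20a2 at 1 of 4. Slc20a1 encodes PiT-1, a sodium-phosphate carrier found in most tissues. Its brighter probe read 1.76, 1.75 and 1.76 on the bromate arrays, against 1.20, 1.15 and 0.99 on the water arrays. Its dimmer probe read 0.84, 0.91 and 0.89 on the bromate arrays, against 0.28, 0.19 and 0.06 on the water arrays. At each probe the lowest bromate value was above the highest water value. The rises were 1.56-fold (0.64 ± 0.09, adjusted p = 0.0104) and 1.62-fold (0.70 ± 0.09, adjusted p = 0.00929), and both passed by limma on leaving out any 1 array (highest adjusted p = 0.0452).

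Slc20a2 encodes PiT-2, a related carrier that is also found in the brush border. Its brightest probe read 3.66, 3.52 and 3.52 on the bromate arrays, against 3.26, 3.14 and 3.16 on the water arrays. This probe rose 1.30-fold (0.38 ± 0.09, adjusted p = 0.0385). The other 3 probes, which were much dimmer, had differences of 0.16 to 0.33 and did not pass (adjusted p = 0.133 to 0.21). Their groups did not overlap at 2 of these 3 probes. The call of the brightest probe held on leaving out water replicate 1 (adjusted p = 0.0493) and was lost on leaving out bromate replicate 1 (log2 difference 0.33), bromate replicate 2 (0.41), bromate replicate 3 (0.40), water replicate 2 (0.36) or water replicate 3 (0.37), with adjusted p of 0.0851 to 0.12 by limma. Averaged over its 4 probes, the change was 0.28 and failed the threshold (adjusted p = 0.1). The exact permutation test of the change of Slc20a1 against that of Slc20a2 gave a difference of 0.26 (two-sided p = 0.1, the smallest possible, adjusted p = 0.15).

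**Figure D2:**
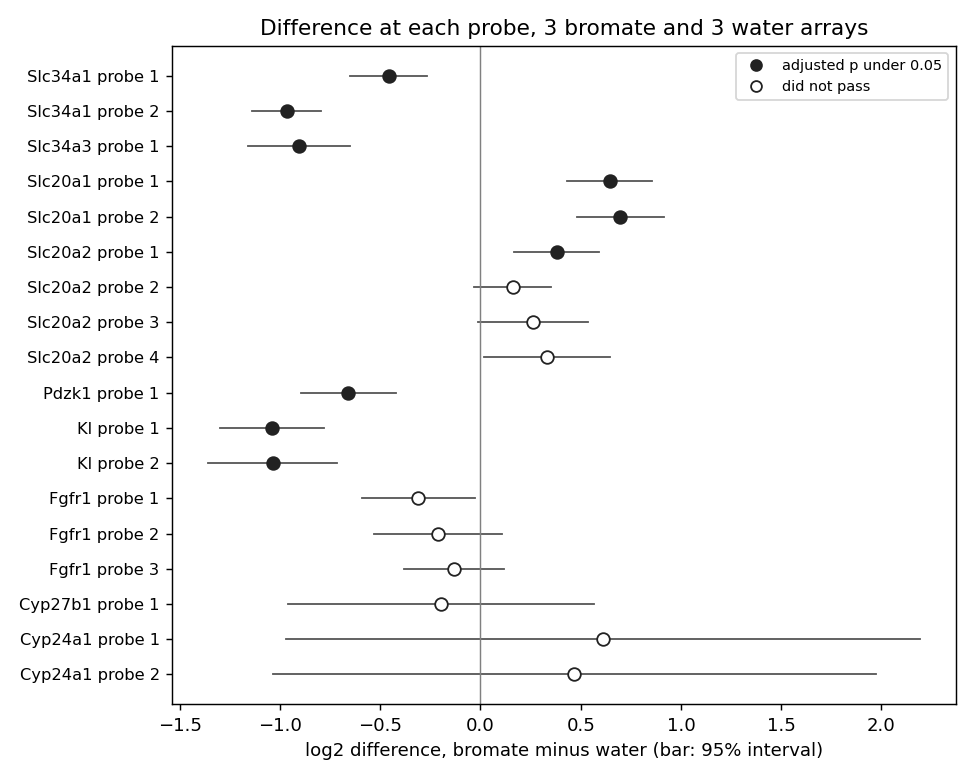
Log2 difference, bromate minus water (horizontal axis), at each of the 18 probes, with its 95% interval from the limma fit over 3 bromate and 3 water arrays. Filled points passed at an adjusted p under 0.05. The 3 probes of Slc34a1 and Slc34a3 lie between -0.97 and -0.46, the 6 of Slc20a1 and Slc20a2 between 0.16 and 0.70, and the intervals of Cyp27b1 and Cyp24a1 are the widest.

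Kl encodes Klotho, which turns FGF receptors into receptors for FGF23 and is made mainly by the distal tubule and less by the proximal tubule. Its brighter probe read 0.77, 0.74 and 0.92 on the bromate arrays, against 1.80, 1.75 and 2.00 on the water arrays. Its dimmer probe read 0.58, 0.45 and 0.82 on the bromate arrays, against 1.61, 1.53 and 1.82 on the water arrays. The probes agreed to 2 decimals in size, with a fall of 2.06-fold (-1.04 ± 0.11, adjusted p = 0.00475) and of 2.05-fold (-1.04 ± 0.13, adjusted p = 0.00915). Both passed by limma on leaving out any 1 array (highest adjusted p = 0.0358). Kl had the largest fall of the 9 genes at its brightest probe, and its absolute difference exceeded that of 94.1% of all probes tested.

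Fgfr1 encodes an FGF receptor that Klotho binds. Its brightest probe read 0.50, 0.26 and 0.42 on the bromate arrays, against 0.87, 0.57 and 0.67 on the water arrays. These groups were apart by a small margin, whereas those of the other 2 probes overlapped. The 3 probes had differences of -0.31, -0.21 and -0.13, and 0 of them passed by limma (adjusted p = 0.123 to 0.409, with 1 at an unadjusted p under 0.05). The 95% interval of the brightest probe ran from -0.59 to -0.03. The exact permutation test of the change of Kl against that of Fgfr1 gave a difference of -0.73 (two-sided p = 0.1, the smallest possible, adjusted p = 0.15). The log2 signal of the Kl probe minus that of the Fgfr1 probe was 0.42 ± 0.13 on the bromate arrays. On the water arrays it was 1.15 ± 0.21 (SD, n = 3 each). Signals of different probes do not compare amounts of transcript, so only the change of this gap is read.

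Slc34a1, Slc34a3, Pdzk1 and Kl, which fell, are shown with Cyp27b1, which did not pass, by the 250 bases before the transcription start, so that the control regions of genes that moved together can be read side by side. Sequences are from RefSeq, build GRCr8, 5′ to 3′ on the strand of the gene, and 5 of the 9 genes were in the table of promoters. Capitals mark matches on either strand to AGGTCA, a motif that many nuclear receptors bind, to GTTAAT, a motif of the tubule factor HNF1, to TATAAA, the TATA box, and to GGGCGG, the GC box. The motifs do not overlap one another in these windows, and they were picked after the sequences had been seen.
Slc34a1, chr17:9238984-9239233, minus strand: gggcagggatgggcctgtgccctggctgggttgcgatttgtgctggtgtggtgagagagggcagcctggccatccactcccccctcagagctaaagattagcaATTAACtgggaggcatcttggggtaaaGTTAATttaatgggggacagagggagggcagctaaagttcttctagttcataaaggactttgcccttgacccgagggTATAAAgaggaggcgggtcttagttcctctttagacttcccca
Slc34a3, chr3:28447998-28448247, minus strand: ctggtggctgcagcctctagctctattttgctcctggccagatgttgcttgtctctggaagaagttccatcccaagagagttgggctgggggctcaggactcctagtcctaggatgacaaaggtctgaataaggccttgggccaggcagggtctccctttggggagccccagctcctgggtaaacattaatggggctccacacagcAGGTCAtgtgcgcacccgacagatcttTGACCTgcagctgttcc
Pdzk1, chr2:187064745-187064994, plus strand: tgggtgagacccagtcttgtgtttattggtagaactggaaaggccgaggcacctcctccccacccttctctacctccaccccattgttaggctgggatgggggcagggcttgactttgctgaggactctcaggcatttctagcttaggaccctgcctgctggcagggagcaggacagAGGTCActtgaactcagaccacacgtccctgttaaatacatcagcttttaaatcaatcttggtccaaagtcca
Kl, chr12:5325753-5326002, plus strand: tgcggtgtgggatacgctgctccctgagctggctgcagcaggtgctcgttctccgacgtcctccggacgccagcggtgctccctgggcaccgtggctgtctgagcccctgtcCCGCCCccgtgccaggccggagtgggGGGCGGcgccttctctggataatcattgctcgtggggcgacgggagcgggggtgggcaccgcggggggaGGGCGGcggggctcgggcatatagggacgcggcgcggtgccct
Cyp27b1, chr7:64756376-64756625, plus strand: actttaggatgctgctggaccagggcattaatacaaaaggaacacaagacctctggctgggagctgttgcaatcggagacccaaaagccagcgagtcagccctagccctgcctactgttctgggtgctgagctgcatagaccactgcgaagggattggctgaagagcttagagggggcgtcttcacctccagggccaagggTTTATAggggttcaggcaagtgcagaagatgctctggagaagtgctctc

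None of the 4 motifs searched stood in the windows of all 4 genes that fell, and AGGTCA stood in those of Slc34a3 and Pdzk1. Slc34a1 held GTTAAT at 2 places, 147 and 120 bases before the start, and a TATA box 43 bases before it. Slc34a3 held AGGTCA at 2 places and Pdzk1 at 1 place. Kl held none of these and had 3 GC boxes. Its window was the richest in G and C of the 5 (73.2%, above 95.1% of all windows, whose median was 51.2%), while the other 4 lay between 52.8% and 56.4%. Of 33469 promoter windows of the same length, 6.45% held GTTAAT, 14.1% AGGTCA, 12.9% TATAAA and 30.5% GGGCGG. A match is a run of letters and was not tested as a binding site.

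The vitamin D enzymes did not pass the test. Cyp27b1 encodes the hydroxylase that makes active vitamin D. Its probe read 0.32, -0.29 and -0.92 on the bromate arrays, against -0.17, -0.21 and 0.09 on the water arrays. The bromate values spread over more than the whole range of the water values, with a SD of 0.62 in the bromate group and 0.17 in the water group. The difference was -0.20 ± 0.31 (95% interval -0.96 to 0.57, adjusted p = 0.697), and its sign turned without bromate replicate 3 (0.12).

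Cyp24a1 encodes the hydroxylase that inactivates vitamin D. Its brighter probe read 1.87, 2.33 and 2.08 on the bromate arrays, against 2.02, -0.05 and 2.47 on the water arrays. Its dimmer probe read -0.41, 0.05 and -0.13 on the bromate arrays, against -0.08, -2.09 and 0.27 on the water arrays. At both probes water replicate 2 stood apart below the other 5 arrays, and the other water values lay at or around the bromate values. The differences of 0.61 ± 0.65 and 0.47 ± 0.61 did not pass (adjusted p = 0.552 and 0.633, 95% interval of the brighter probe -0.97 to 2.19). Without water replicate 2 they were -0.15 and -0.26 (adjusted p = 0.67 and 0.439). Over the 3 probes of both enzymes, 0 passed by limma and 0 had an unadjusted p under 0.05. The exact permutation test of the change of Cyp24a1 against that of Cyp27b1 gave a difference of 0.81 (two-sided p = 0.5), which ran from 0.10 without water replicate 2 to 1.23 without bromate replicate 1.

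**Figure D3:**
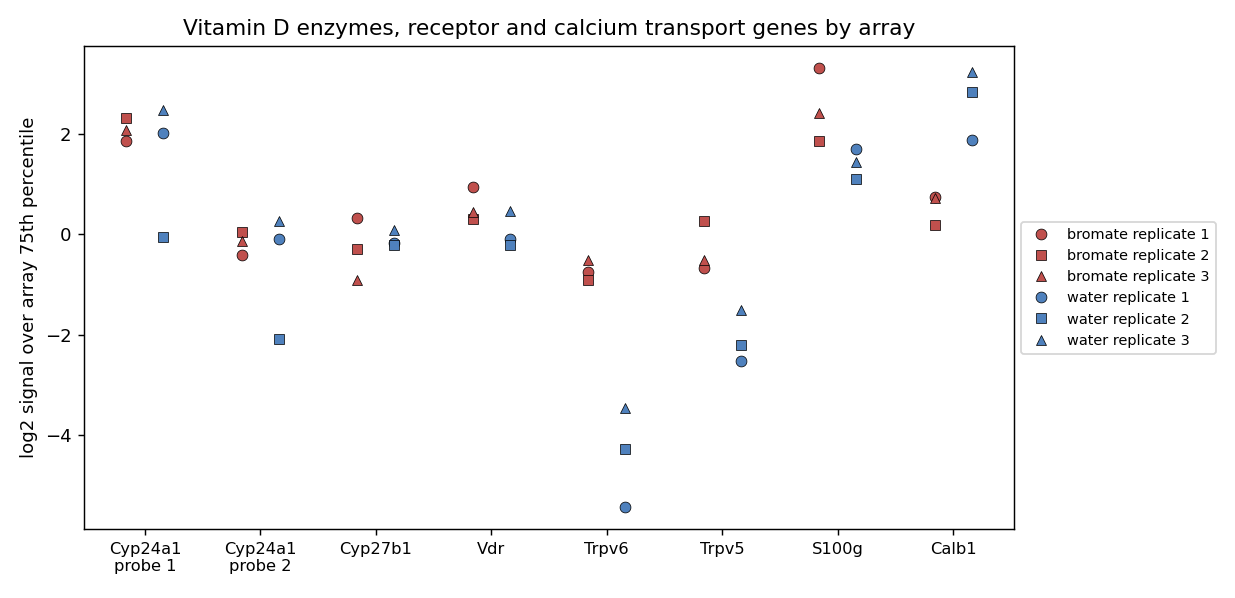
Log2 signal over the 75th percentile of the array (vertical axis) on the 3 bromate arrays (red, left) and the 3 water arrays (blue, right) for the vitamin D enzymes, the receptor gene Vdr and 4 calcium transport genes. Marker shapes give the replicate number. Water replicate 2 is low at both Cyp24a1 probes (-0.05 and -2.09), and all bromate values of Trpv6 and Trpv5 lie above all water values.

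Other genes of the pathway were taken from 4 lists, with the brightest probe of each gene. Of 18 genes of vitamin D supply and action 2 rose, 4 fell and 12 did not pass, where 7.19% of all probes rose and 7.6% fell. The median difference was -0.19, against -0.02 over all probes. The 2 genes of this list that rose encode epithelial calcium channels. Trpv6 read -0.75, -0.92 and -0.51 on the bromate arrays, against -5.45, -4.28 and -3.47 on the water arrays, where it was well above background on 2 of 3 arrays (3.67 ± 0.48, adjusted p = 0.01). With normexp background correction and quantile normalization the difference was 2.37 (adjusted p = 0.000775), so the size depends on how these dim signals are corrected. Trpv5 rose 3.43-fold (1.78 ± 0.35, adjusted p = 0.0273), a call that limma lost without bromate replicate 2 or 3 or water replicate 1 or 2 (log2 difference 1.49 to 2.06 over all 6 omissions, adjusted p up to 0.0903). The dimmer probe of Trpv5 rose less (1.01 ± 0.25, adjusted p = 0.0498 by limma).

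The largest falls among the genes of that list that passed were in Casr, which encodes the calcium-sensing receptor, Calb1, which encodes the calcium buffer calbindin, and Lrp2, which encodes megalin, the receptor that brings filtered vitamin D into the proximal tubule cell. Gc, which encodes the vitamin D binding protein of plasma, had a difference of -2.28 ± 1.69 and did not pass (adjusted p = 0.393). Casr fell 4.76-fold (-2.25 ± 0.18, adjusted p = 0.00252). Calb1 fell 4.27-fold (-2.09 ± 0.37, adjusted p = 0.0208), and limma kept the call only without water replicate 1 among the 6 omissions of an array (log2 difference -2.48 to -1.80, adjusted p up to 0.0755). Lrp2 fell 1.86-fold (-0.90 ± 0.09, adjusted p = 0.00474), and less at its dimmer probe (-0.65 ± 0.13, adjusted p = 0.0308 by limma). Lrp2 and Calb1 also stand in the marker lists for the convoluted proximal and the distal convoluted tubule. Calb1 and Trpv5, both genes of the distal tubule, thus differed in sign. Vdr, which encodes the vitamin D receptor, read 0.94, 0.30 and 0.45 on the bromate arrays, against -0.10, -0.22 and 0.48 on the water arrays, and did not pass (0.51 ± 0.25, adjusted p = 0.207). Its lowest water value, on replicate 2, was only 0.12 below that of replicate 1. The dimmer probe of Vdr did not pass either (0.27 ± 0.25, adjusted p = 0.497 by limma).

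Of 14 measured genes of parathyroid hormone and FGF23 signalling 1 rose, 2 fell and 11 did not pass (median difference 0.11). With 7.19% of all probes higher and 7.6% lower, these counts are near the background and are no result about the list. Pth1r, which encodes the receptor for parathyroid hormone, read 3.43, 3.53 and 3.88 on the bromate arrays, against 4.57, 4.68 and 4.70 on the water arrays. Every bromate value was lower, and the fall was 2.05-fold (-1.03 ± 0.14, adjusted p = 0.00989), close to that of Kl in size. Egr1, an early-response transcription factor gene that FGF23 and many other stimuli switch on, rose 4.91-fold (2.30 ± 0.32, adjusted p = 0.0119). The Egr1 call was lost by limma without water replicate 2 (adjusted p = 0.0502). Prkaca, which encodes a catalytic subunit of protein kinase A, fell 1.23-fold (-0.30 ± 0.07, adjusted p = 0.0447), and its call was lost on leaving out any 1 array (log2 difference -0.33 to -0.28, adjusted p up to 0.129). The 2 other probes of Prkaca did not pass. Fgf23 itself was not well above background on any of the 6 arrays, and its level was not tested.

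Of 8 measured scaffold and apical anchoring genes 0 rose and 1 fell by limma (median difference -0.29), likewise near the background shares. At an unadjusted p under 0.05 by limma, 0 were higher and 3 lower. The share of all probes at that limit was not taken, so these and the later unadjusted counts of other lists have no background. Nherf4, which encodes a PDZ protein related to that of Pdzk1, fell 1.60-fold (-0.68 ± 0.09, adjusted p = 0.0106). Nherf1 (Slc9a3r1), which encodes the other main PDZ scaffold of NaPi-IIa, read 2.28, 2.09 and 2.35 on the bromate arrays, against 3.04, 2.43 and 2.53 on the water arrays. The groups were apart but water replicate 1 stood above the rest, and the difference did not pass (-0.43 ± 0.18, adjusted p = 0.16).

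Of 12 measured genes of phosphate transport and export 0 rose and 4 fell by limma (median difference -0.13, with 2 higher and 5 lower at an unadjusted p under 0.05). Over all probes 7.19% rose and 7.6% fell. With 1 array left out 1 to 3 genes of the list fell, and with no filter on dim probes 1 fell. Stc1, which encodes stanniocalcin, fell 1.87-fold (-0.91 ± 0.15, adjusted p = 0.0186). Limma lost this call without bromate replicate 2 or 3 or water replicate 3 (log2 difference -1.07 to -0.79 over all 6 omissions, adjusted p up to 0.0676). Alpl, which encodes tissue-nonspecific alkaline phosphatase, read 3.31, 3.25 and 3.64 on the bromate arrays, against 4.20, 4.24 and 4.26 on the water arrays. It fell 1.78-fold (-0.83 ± 0.12, adjusted p = 0.0131), which did not pass without water replicate 2 (adjusted p = 0.0552). Enpp1, which encodes an enzyme that makes pyrophosphate, fell 1.42-fold (-0.51 ± 0.12, adjusted p = 0.0453), and the call held only without bromate replicate 1 when 1 array was left out (log2 difference -0.60 to -0.39, adjusted p up to 0.12).

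Slc34a2, which encodes the related carrier NaPi-IIb of intestine and lung and was chosen after its values were seen, read -1.52, -1.21 and -0.41 on the bromate arrays, against -2.54, -4.70 and -6.94 on the water arrays. All bromate values were above all water values, and 2 of the 3 water arrays were well above background. The difference of 3.68 ± 1.07 did not pass (adjusted p = 0.0716), and on leaving out 1 array at a time it ran from 2.57 without water replicate 3 to 4.77 without water replicate 1 (adjusted p by limma 0.0272 to 0.166, passing only without water replicate 1). With normexp background correction and quantile normalization the difference was 2.09 (adjusted p = 0.0223), so its size is uncertain. Its sign was opposite to that of Slc34a1 and Slc34a3. The dimmer probe of Slc34a2 did not pass either (3.00 ± 0.80, adjusted p = 0.0568 by limma).

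**Figure D4:**
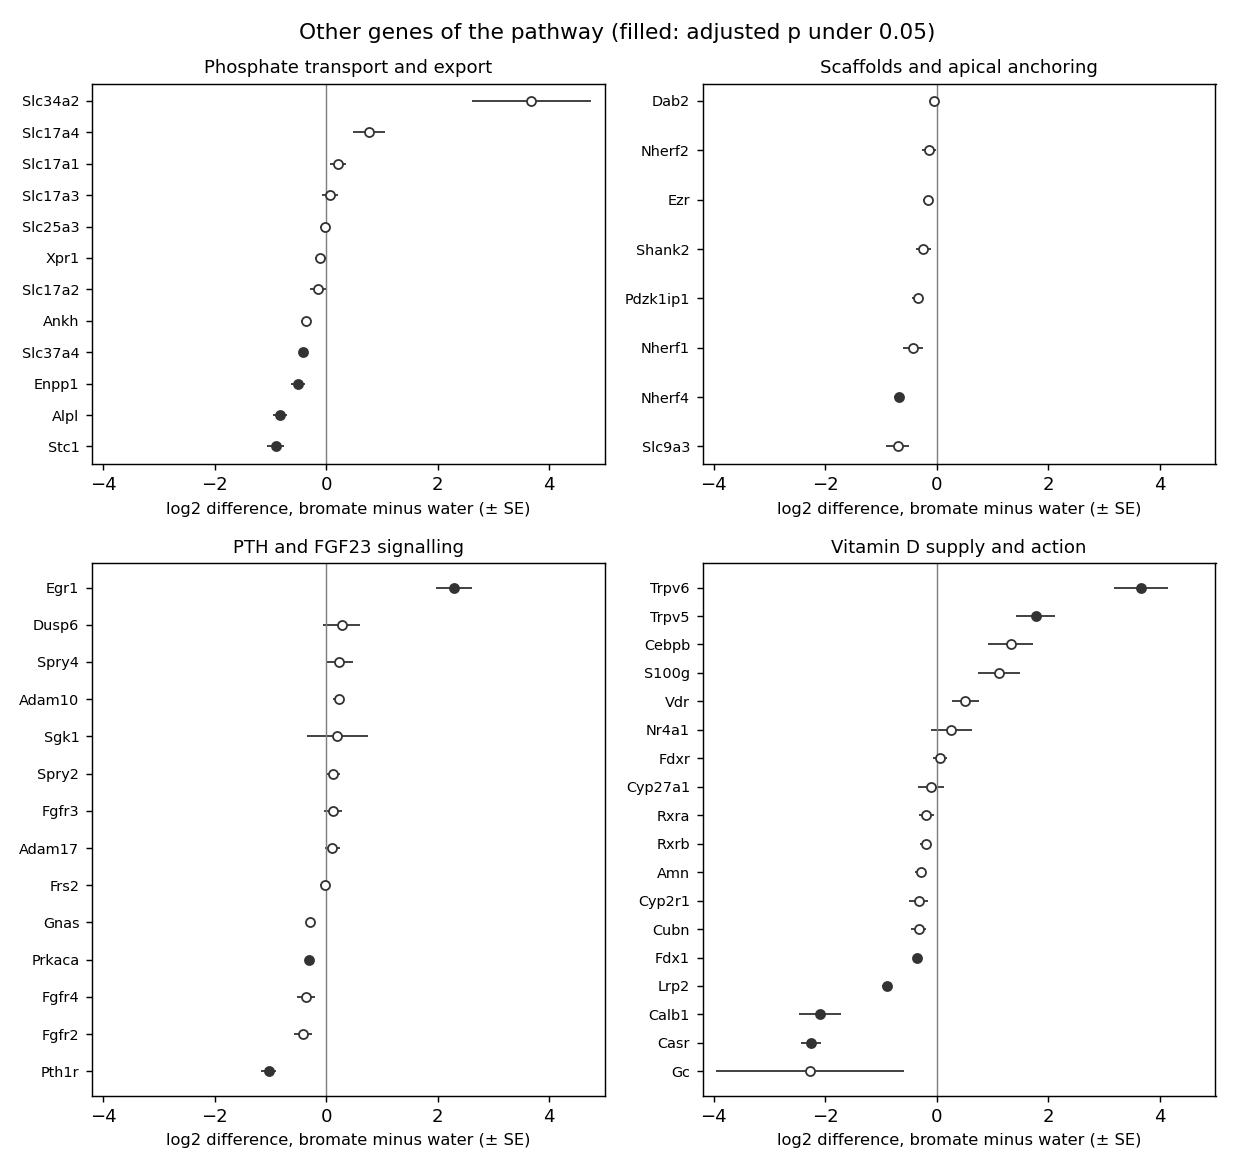
Log2 difference, bromate minus water, with its standard error (horizontal axis), for each measured gene of 4 lists, 1 probe per gene, over 3 bromate and 3 water arrays. Filled points passed at an adjusted p under 0.05. Trpv6, Trpv5 and Egr1 lie above 0 among the filled points, and Casr, Calb1 and Pth1r are the lowest of them.

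Of 11 markers of the convoluted proximal tubule, where the brush border carriers reside, 4 fell, 1 rose and 6 did not pass (median difference -0.32). Over all probes 7.19% rose and 7.6% fell. The 4 that fell were Slc5a2, Lrp2, Slc22a8 (whose other probe did not pass) and Miox. The summed signal of the 11 markers was 1089 to 1207 times the 75th percentile on the bromate arrays and 1537 to 1567 times on the water arrays. The brightest, Miox, fell 1.35-fold (-0.43 ± 0.09, adjusted p = 0.0307, above 0.05 on leaving out any 1 array), Slc22a6 did not pass (-0.30 ± 0.11, adjusted p = 0.126) and the glucose carrier gene Slc2a2 rose 2.23-fold (1.16 ± 0.13, adjusted p = 0.00653). The exact permutation test of the change of Slc34a1 at its brighter probe against that of the glucose carrier gene Slc5a2 (-0.92 ± 0.12) gave a difference of 0.46 (two-sided p = 0.1, adjusted p = 0.15). The dimmer probe of Slc34a1, at -0.97 ± 0.07, lay within the standard error of Slc5a2, and that pair was not tested. Markers of the straight proximal tubule summed to 183 to 229 on the bromate arrays and to 727, 330 and 251 on water replicates 1 to 3, and 0 of 9 passed by limma (4 lower at an unadjusted p under 0.05). Over the same water arrays Slc34a1 varied by 0.06 at most at either probe.

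All 3 measured markers of the distal convoluted tubule (Calb1, Slc8a1 and Slc12a3) fell, where 7.6% of all probes fell. Slc12a3, the gene of the thiazide-sensitive salt carrier, fell 3.68-fold (-1.88 ± 0.38, adjusted p = 0.0286), and their sum was 5.34 to 9.06 on the bromate arrays and 19.3 to 39.4 on the water arrays. Pvalb stayed below that limit throughout, and Trpm6 had no named probe. The exact permutation test of the change of Kl against that of Slc12a3 gave a difference of 0.84 (two-sided p = 0.2, adjusted p = 0.24), and the call of Slc12a3 was lost by limma without bromate replicate 2 or 3 or water replicate 2 or 3 (log2 difference -2.12 to -1.52 over all 6 omissions, adjusted p up to 0.0914). The part of these shifts in the results for Kl and the carriers was not tested.

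Among the other marker lists, 3 of 5 thick ascending limb genes fell (Umod, Kcnj1 and Slc12a1) and 1 rose (Ptger3). In the collecting duct list 4 of 7 genes fell (Slc26a4, Atp6v1b1, Avpr2 and Scnn1b). In the podocyte list 1 of 5 fell (Wt1, with 0 of its 3 other probes passing), and in the endothelial list 1 of 4 (Emcn). Of 3 measured leukocyte genes 0 passed by limma (1 higher at an unadjusted p under 0.05). Over all probes tested 7.19% rose and 7.6% fell. The summed markers of the thick ascending limb (50 to 100.5 on the bromate arrays and 231.7 to 475 on the water arrays) and of endothelium (22.5 to 24.3 on the bromate arrays and 27.7 to 37.2 on the water arrays) did not overlap between the groups. Collecting duct sums did (153 to 272 on the bromate arrays and 189 to 265 on the water arrays). Each sum adds linear signals, so its brightest genes weigh most. In the collecting duct list the brightest was Aqp2, which did not pass (0.40 ± 0.30, adjusted p = 0.396 by limma), while the dimmer Slc26a4 fell 44.3-fold. The sums of podocyte markers also overlapped between the groups (26.0 to 28.3 on the bromate arrays and 26.7 to 31.7 on the water arrays), as did those of leukocyte markers (2.76 to 4.49 on the bromate arrays and 2.95 to 3.03 on the water arrays). Of 4 tubule injury genes 3 rose (Havcr1, Spp1 and Clu), and their sum was 255 to 328 on the bromate arrays and 15.6 to 21.4 on the water arrays. The slide of water replicate 1 held no other array of the study, and with slide as a block, which takes that array out of the comparison, the 18 probes again gave 3 that rose and 6 that fell.

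Likeness of pattern was measured as the root mean square gap between log2 profiles over the 6 arrays, each centred on its own mean, among named genes whose range was at least 50% of that of the gene in question. For Slc34a1 at its brighter probe the closest of 9716 genes were Lrrc8b (gap 0.014), Ushbp1 (0.022) and Rab3ip (0.023). For Kl the closest of 5073 were Cabp4 (0.046), Olfml2a (0.048) and Gfra3 (0.060). For Cyp27b1 the closest of 5193 were Kcng2 (0.143), Ankrd65 (0.169) and Agap1 (0.170), a looser match than for the other genes. For instance, Gfra3 read 1.42, 1.45 and 1.47 on the bromate arrays, against 2.39, 2.41 and 2.56 on the water arrays. The likeness is a description over 6 arrays.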

How the data were processed

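Each deposited scanner file lists for every spot the processed signal used here, beside median spot and local background intensities. Per the file headers, the processed signal had background subtracted and a spatial trend removed, with no scaling across arrays. By the same headers, probes were annotated on build rn4. Feature Extraction 10.7 is the software that the submitters' processing notes name. The authors' deposited value table holds a linear ratio, which equalled the processed signal over the 75th percentile of the array to within 0.64% to 0.807% at values of at least 0.01, with column medians of 0.1025 to 0.1054. It runs the same way as the signal and is not centred. The labels do not say how it was scaled.

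Here log2 processed signals were reduced by the log2 of the 75th percentile over the 61537 non-control probes of each array, of which 35621 to 38801 (57.9% to 63.1%) were well above background. Outlier spots (0 to 4 per array) were dropped. The test took probes that were well above background on 3 or more arrays, of which 2 could not be fitted for missing values. Probes were named by transcript accession through RefSeq's gene list (GRCr8), which gave 1 symbol to 28206 (45.8%) and several to 0. Each probe was tested for itself in limma 3.58.1 (lmFit, then eBayes) under R 4.3.3 with data.table (version 1.17.8), adjusted over all probes at 0.05, and the script was tested on simulated data. Figures used Python 3.11.15 and matplotlib 3.10.9. Promoter motifs were searched in the 250 bases before the start. The number of arrays limits the precision.

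The members, lists and tests were chosen with earlier results of these data known. Named genes were the 9 members, up to 3 called genes per list and direction, 5 genes fixed by name (Vdr, Fgf23, Pth1r, Slc9a3r1 and Alpl), bright markers and the closest patterns, leaving out symbols starting with LOC or RGD. Some of the brightest markers that this rule names are given by their list's count and sum. A list entry for the PDZ protein Nherf4 was read by that name. Over all probes tested, deviations from the group means correlated at 0.056, 0.073 and -0.091 between arrays of equal replicate number. The main fit took the arrays as unpaired, and a pairing at single genes was not tested.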

Additional observations from a re-analysis of the deposited data

How the results depend on the processing

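Alternatives were quantile normalization, another set for the percentile, normexp (offset 50, on median spot and local background intensities), the value table, 2 other filters, outlier spots kept, 1 probe or the mean of probes per gene, an intensity trend with robust variance, slide and replicate number as blocks, the mean of the straight-tubule markers as covariate and each array left out in turn. Of 324 repeats of the 18 probe differences, 301 kept direction and side of the threshold, 20 lost the call and 3 turned in sign. The turned ones, none of them called, were Cyp27b1 without bromate replicate 3 (0.12, lowest with 1 array left out -0.51) and the probes of Cyp24a1 without water replicate 2 (-0.15 and -0.26, highest with 1 array left out 1.11 and 0.92). The differences between gene changes, each taken at fixed probes, kept their sign in all 70 repeats. The choice of probe was not among these repeats. At the dimmer probe of Slc34a1 (-0.97) the order against Slc34a3 (-0.90) and Slc5a2 (-0.92) turned by less than the standard errors and was not tested.

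Over all probes 1091 rose and 1023 fell with no filter on dim probes, which adjusts over more probes. With that covariate 1305 rose and 1343 fell, and with 1 array left out 871 to 2064 rose and 785 to 2310 fell. Without water replicate 2, 871 rose and 785 fell. Among the 18 probes, 2 to 3 rose and 4 to 6 fell with 1 array left out, and with the mean of a gene's probes 1 gene rose. With replicate number as a block, 829 of all probes rose and 757 fell, and of the 18 probes 0 rose and 4 fell by limma (adjusted p of Slc20a1 0.0525 at both probes). The brighter probe of Slc34a1 (adjusted p = 0.0745 by limma), Pdzk1 (0.056) and the brightest probe of Slc20a2 (0.0812) also lost their calls. The differences themselves kept their size, and whether equal numbers mark a pairing at these genes was not tested.

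In the list of phosphate transport genes, where 0 rose and 4 fell, 1 rose (Slc34a2) with normexp, with slide as a block and with the covariate, 1 fell with no filter or with the covariate, 0 fell with replicate number as a block and 1 to 3 fell with 1 array left out. In the scaffold list, where 1 fell, 2 fell with the intensity trend, with slide as a block or with the covariate, 0 with replicate number as a block and 1 to 2 with 1 array left out. In the parathyroid hormone and FGF23 list, where 1 rose and 2 fell, 1 fell with no filter, the mean of probes, replicate number as a block or the covariate, and 0 to 1 rose and 1 to 2 fell with 1 array left out. In the vitamin D list, where 2 rose and 4 fell, 1 rose with no filter, the filter on all 6 arrays (which leaves out Trpv6), slide or replicate number as a block, 2 fell with no filter or replicate number as a block, and 1 to 2 rose and 2 to 3 fell with 1 array left out. Of the convoluted tubule markers, where 4 fell, 2 fell with quantile normalization, no filter or the covariate, 1 with replicate number as a block and 2 to 3 with 1 array left out. Apart from the construction of each alternative, the cause was not tested.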
